A study of Mus musculus with 3 samples.

Results

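Adipokines are hormones and carrier proteins that fat releases into the blood, and 10 genes of this system are described here, 7 for secreted factors (Lep, Adipoq, Retn, Cfd, Rbp4, Nampt and Rarres2) and 3 for receptors (Lepr, Adipor1 and Adipor2). They were chosen by name from 21887 protein-coding gene records, and every methylated region in each record and the 5000 bp on either side of it was listed. DNA methylation had been profiled in epididymal fat by methylated DNA immunoprecipitation sequencing (MeDIP-seq), where an antibody pulls down methylated fragments and a peak marks a region in which they pile up. FAD mice ate a high-fat diet with 60% of energy from fat and drank folic acid at 20 μg/mL, HFD mice ate the same diet without folic acid, and ND mice ate a normal diet with 10% of energy from fat. All were male C57BL/6J mice that started at 6 weeks of age and were 16 weeks old after 10 weeks on the diet. Each diet had 1 library, with no statement in the labels of how many animals went into it, so no difference below has a replicate check or a test.

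Leptin signals the size of the fat stores to the brain through its receptor, and adiponectin acts through ADIPOR1 and ADIPOR2 to raise fatty acid oxidation and insulin sensitivity. In fat, promoters rich in CpG, the dinucleotide that carries the methyl group, are mostly unmethylated, and the leptin and adiponectin promoters have been studied as places where methylation and expression vary together. A peak list records where methylation was dense enough to be called, but neither the level of methylation nor expression, so the fat identity of the tissue could not be checked against marker genes.

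The lists held 95501 peaks in FAD, 135124 in HFD and 101532 in ND, and the median peak measured 447 bp in FAD, 587 bp in HFD and 507 bp in ND. Sequencing depth is unknown, and a longer list with wider peaks also gives more peaks at any gene. Scores are the authors' own and have a floor of 50 in every list. Their scale is not stated, so a score is read below against its own list.

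Peaks at the 10 loci numbered 13 in FAD, 24 in HFD and 17 in ND. Pooled over the loci, these come to 0.365, 0.673 and 0.477 peaks per 10 kb, beside 0.419, 0.626 and 0.457 over all protein-coding loci. The median locus had 0.452, 0.613 and 0.446 peaks per 10 kb in FAD, HFD and ND, beside 0.397, 0.645 and 0.450 for all protein-coding genes. Chained by overlap, the peaks formed 28 regions, of which 18 had their midpoint in a gene record and 10 in the flanks. Of these regions 10 were called in all 3 libraries, 8 in HFD only, 4 in HFD and ND, 3 in ND only, 2 in FAD and HFD, and 1, at the start of Lep, in FAD only. The 8 HFD-only regions are 28.6% of the regions, where 24.6% of 84853 regions at protein-coding loci were HFD-only, and the 10 called in every library are 35.7%, against 39.0%. Regions in HFD and ND were 14.3% (12.1% over protein-coding loci) and ND-only regions 10.7% (7.54%). Those in FAD and HFD were 7.14% (8.68%), and the FAD-only region was 3.57% (5.92%). At least 1 peak was found at 7 members in FAD, 9 in HFD and 7 in ND, where 69.1%, 77.9% and 71.7% of protein-coding genes had one. In each library, whether the members lay above or below all loci in density depended on whether the pooled value or the median was taken. Most regions lay away from the gene starts, and the annotation used here does not say whether those in a record are in introns or exons.

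**Figure D1:**
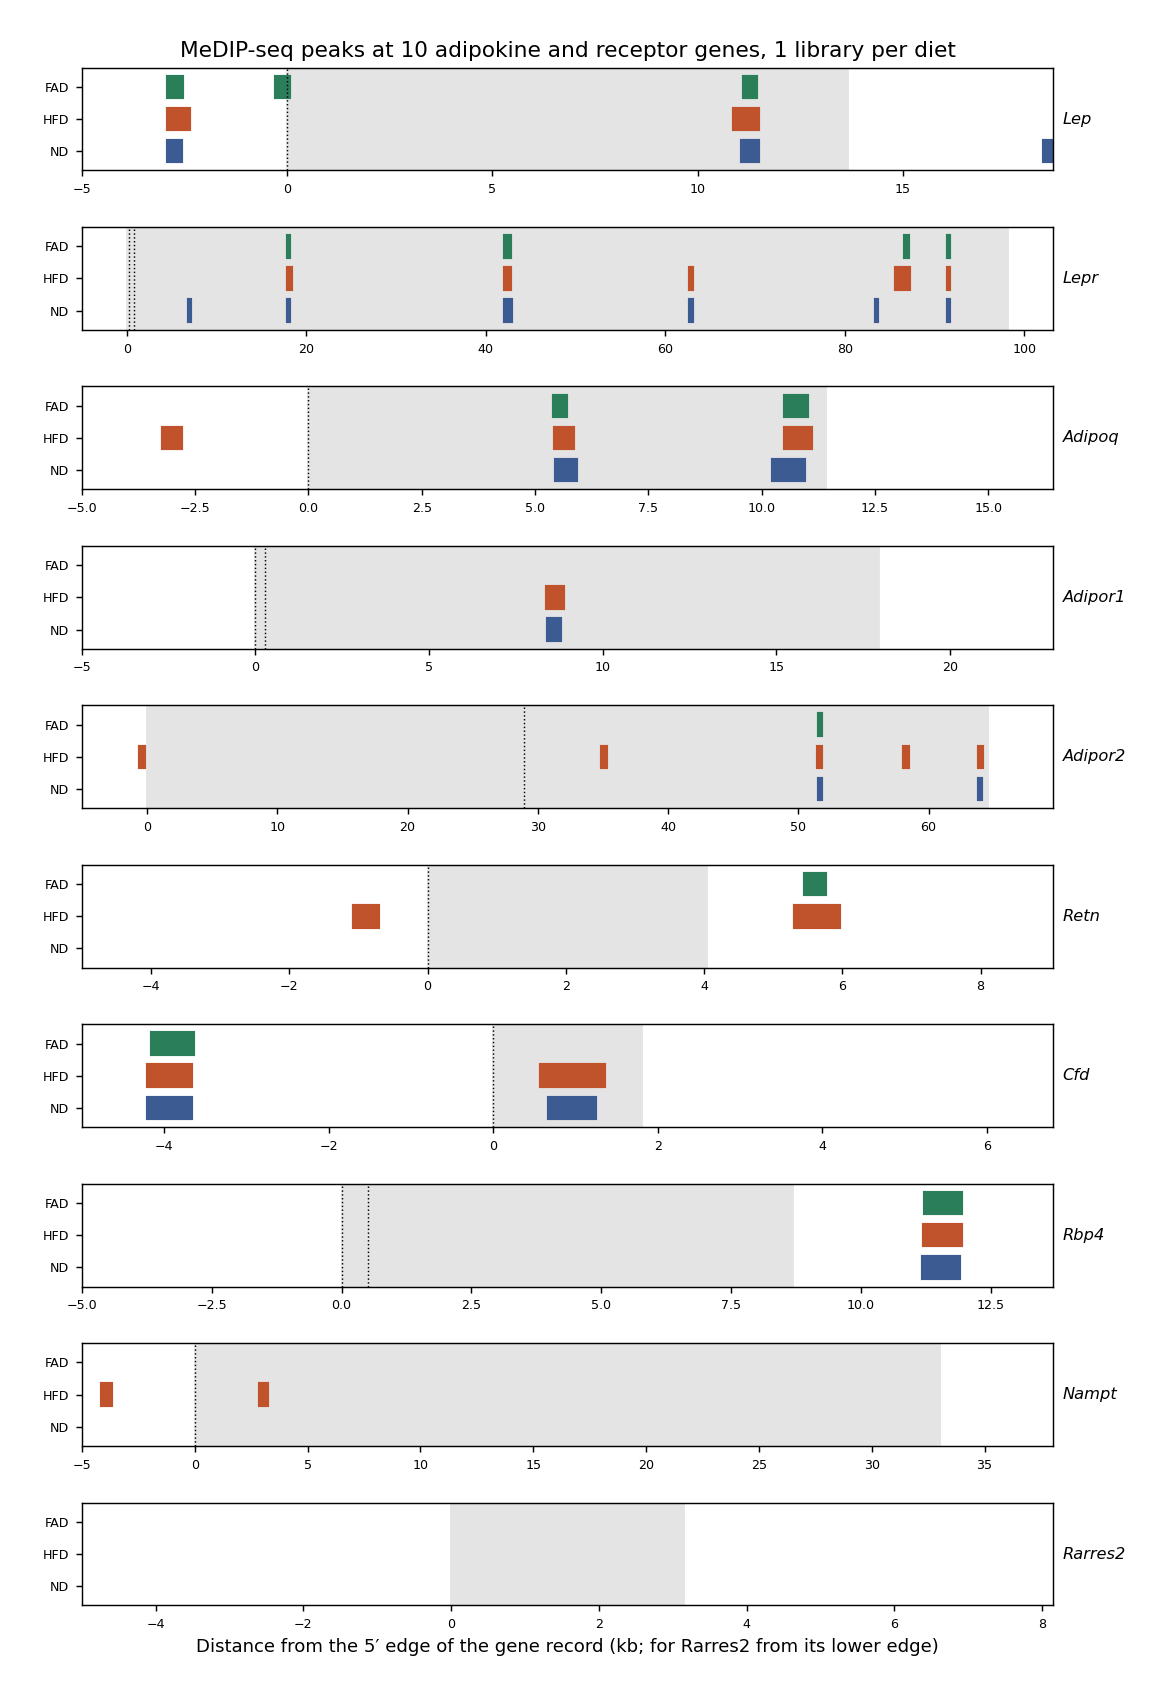
Peaks of FAD (green), HFD (orange) and ND (blue) at each locus, with distance in kb along the direction of transcription, the gene record in grey and listed start sites dotted. Peaks are drawn to scale with a thin outline, and only the FAD lane of Lep has a peak across a start site.

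Lep, which encodes leptin (gene 16846, build mm10, plus strand, chr6:29060221-29073876), was the 1 member with a peak over its start. The FAD peak there ran from 29059931 to 29060288, spanned 358 bp and had a score of 56.1, and 7.33% of FAD peaks scored lower. The nearest HFD peak lay 2085 bp away and the nearest ND peak 2267 bp away, both in the region upstream. This FAD peak covered the whole start window, meaning the 250 bp before and 50 bp after the start. That window is shown first below, with 3 others for contrast in CpG content. All are from RefSeq, build GRCm38.p6, 5′ to 3′, with each CpG in capitals. The windows of Nampt, Adipoq and Retn had no peak in any library. They lie at chr6:29059971-29060270 (Lep), chr12:32820085-32820384 (Nampt), chr16:23146286-23146585 (Adipoq) and chr8:3655520-3655819 (Retn), all on the plus strand.
Lep: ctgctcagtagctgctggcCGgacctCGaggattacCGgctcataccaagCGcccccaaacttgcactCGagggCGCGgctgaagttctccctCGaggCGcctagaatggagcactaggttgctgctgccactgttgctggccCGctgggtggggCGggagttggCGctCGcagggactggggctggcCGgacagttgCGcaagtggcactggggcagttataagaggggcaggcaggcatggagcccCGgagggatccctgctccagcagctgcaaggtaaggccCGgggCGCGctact
Nampt: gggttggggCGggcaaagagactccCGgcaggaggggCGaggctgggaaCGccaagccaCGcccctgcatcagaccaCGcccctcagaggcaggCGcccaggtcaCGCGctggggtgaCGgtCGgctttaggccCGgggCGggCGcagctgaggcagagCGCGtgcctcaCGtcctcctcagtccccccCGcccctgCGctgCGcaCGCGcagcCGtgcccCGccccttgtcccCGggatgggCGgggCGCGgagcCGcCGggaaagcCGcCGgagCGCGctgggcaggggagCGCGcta
Adipoq: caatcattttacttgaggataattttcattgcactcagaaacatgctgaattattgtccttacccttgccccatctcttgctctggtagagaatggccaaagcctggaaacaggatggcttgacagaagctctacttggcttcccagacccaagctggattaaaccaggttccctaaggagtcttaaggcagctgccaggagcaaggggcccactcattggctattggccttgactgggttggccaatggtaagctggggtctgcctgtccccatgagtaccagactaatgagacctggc
Retn: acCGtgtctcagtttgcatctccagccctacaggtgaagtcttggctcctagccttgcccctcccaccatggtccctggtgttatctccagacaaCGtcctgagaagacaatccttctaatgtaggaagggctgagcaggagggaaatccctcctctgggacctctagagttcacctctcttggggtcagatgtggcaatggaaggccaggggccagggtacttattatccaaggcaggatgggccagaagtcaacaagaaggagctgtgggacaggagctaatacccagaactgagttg

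The Lep window held 19 CpG, more than 62.0% of the 21263 start windows of protein-coding genes. That of Nampt held 36, that of Retn 2 and that of Adipoq none. The motif searched was CG, which reads the same on both strands, and 95.4% of windows held at least 1, with a median of 13. Peaks over windows with 15 to 24 CpG, the class of Lep, were uncommon in every library. They covered 84 of 4694 windows (1.79%) in FAD, 101 (2.15%) in HFD and 85 (1.81%) in ND, and 7 windows (0.149%), Lep among them, had a peak in FAD only. Windows with 5 to 14 CpG overlapped a peak most often, at 5.10%, 7.95% and 6.15% in FAD, HFD and ND, and those with 25 or more least often, at 0.513%, 0.627% and 0.475%.

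**Figure D2:**
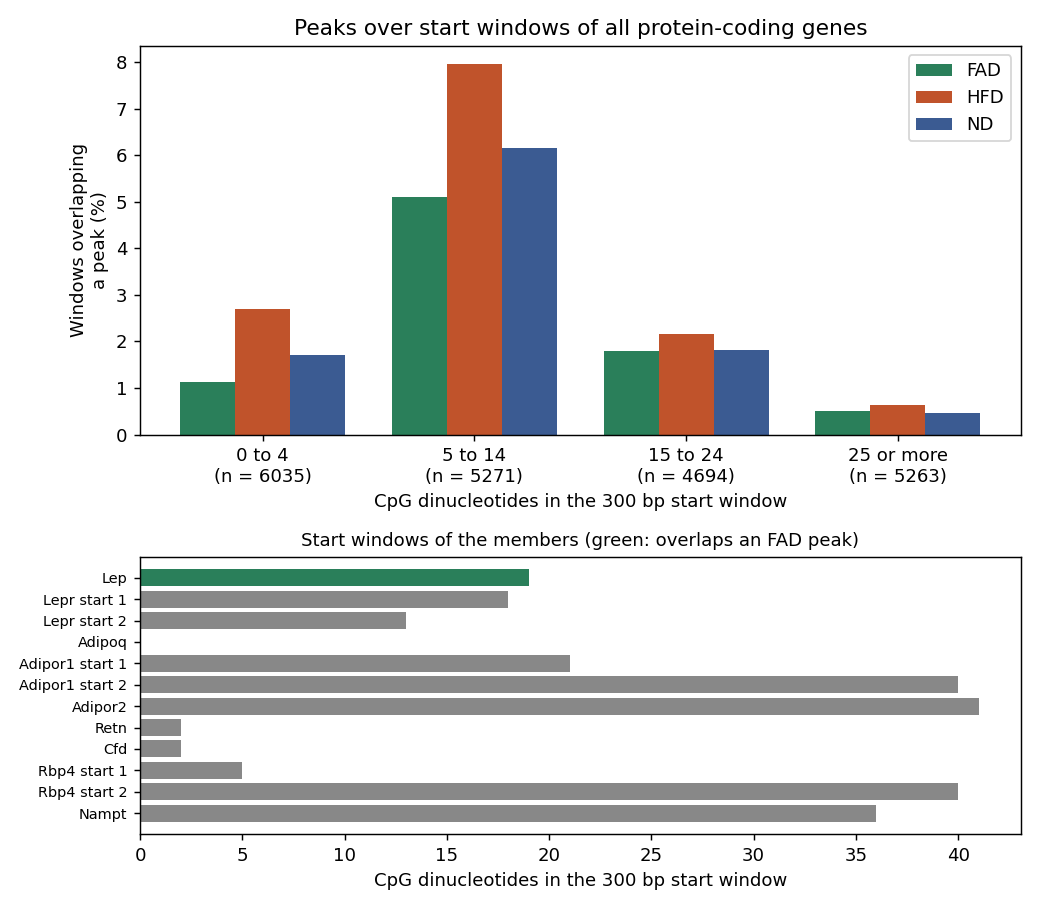
Upper panel: percent of 300 bp start windows of protein-coding genes that overlap a peak, by number of CpG in the window and by library. Lower panel: number of CpG in each start window of the members, where Lep (19 CpG, green) is the 1 window that overlaps a peak, in FAD. Adipoq has no CpG and no bar.

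The other regions of Lep were called in all 3 libraries or in ND. The strongest lay in the record, over 10 kb past the start. It ran from 29071315 to 29071659 in FAD (score 292), from 29071071 to 29071720 in HFD (score 477) and from 29071286 to 29071705 in ND (score 451). It outscored 92.5% of FAD peaks, 97.1% of HFD peaks and 96.3% of ND peaks, the highest standing of any member region in each list. The region upstream of the start, about 2.5 kb away, had scores of 93.6 in FAD, 142 in HFD and 96.6 in ND. Past the end of the gene, an ND peak (29078632 to 29078899, score 127) had no partner, but an FAD peak 1509 bp and an HFD peak 1368 bp farther on lay just beyond the 5000 bp flank. Lep was the 1 member with more peaks in FAD (3) than in HFD (2), and ND had 3.

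Adipoq, the gene of adiponectin (gene 11450, chr16:23146536-23157968, plus strand), carried the same 2 regions inside its record in every library. The region starting about 5.4 kb past the start had a score of 184 in FAD (23151926 to 23152251), 257 in HFD (23151951 to 23152404) and 174 in ND (23151971 to 23152457). The region near the end of the gene scored 123 in FAD, 270 in HFD (23157026 to 23157651) and 109 in ND. In widths these peaks measured 326 and 522 bp in FAD, 454 and 626 bp in HFD, and 487 and 736 bp in ND. Upstream, HFD alone had a peak, from 23143309 to 23143743, 2793 bp before the start. It was weak in its list, with a score of 66.0 and 21.8% of HFD peaks below it, and the nearest FAD and ND peaks lay 8183 and 8228 bp away.

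Retn encodes resistin, a hormone that adipocytes of mice secrete and that opposes insulin action (gene 57264, chr8:3655770-3659818, plus strand). Its record held no peak in any library. HFD had a peak upstream, from 3654696 to 3655067, which spanned 372 bp, ended 703 bp before the start and had a score of 182, above 77.6% of HFD peaks. The nearest FAD peak lay 6156 bp from it and the nearest ND peak 14925 bp. Past the gene end, a weak region was called in FAD (3661223 to 3661527, score 68.1) and in HFD (3661071 to 3661731, score 59.2) and had no ND peak within 17 kb. ND thus had no peak at the locus, and its nearest one lay 15999 bp from the record. Of 4313 loci within 20% of this length, 54.3% had an ND peak and 11.2% had an HFD peak and no ND peak.

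Cfd encodes complement factor D, or adipsin, a serine protease of the alternative complement pathway (gene 11537, chr10:79890853-79892655, plus strand). A region inside this short gene was called in HFD (79891417 to 79892211, score 90.4) and in ND (79891517 to 79892096, score 68.7) and not in FAD, whose nearest peak lay 4200 bp from the HFD peak. It began 564 bp past the start in HFD and 664 bp in ND. A region upstream was called in every library, with scores of 68.0 in FAD (79886694 to 79887217), 74.2 in HFD (79886641 to 79887196) and 121 in ND (79886642 to 79887189). That region lies in the record of Elane, a neighbouring gene for neutrophil elastase, so it cannot be assigned to Cfd.

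Rbp4 encodes the blood carrier of retinol (gene 19662, chr19:38116620-38125321, minus strand). Its record held no peak in any library. The region counted for it lies past its 3′ end, in the record of Ffar4, a fatty acid receptor gene. It was called at nearly the same bases in FAD (38113364 to 38114105, score 93.0), HFD (38113375 to 38114133, score 223) and ND (38113407 to 38114147, score 126).

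Nampt encodes an enzyme of NAD synthesis that is also secreted as visfatin (gene 59027, chr12:32820335-32853369, plus strand). HFD had 2 peaks, and FAD and ND had none. The peak 2831 bp past the start (32823166 to 32823560) had a score of 79.3, and that 3680 bp before the start (32816195 to 32816655) a score of 62.6. These outscored 35.1% and 18.0% of HFD peaks, so both were in the weaker part of their list. The surroundings were empty in the other libraries: the nearest peak lay 40580 bp from the record in FAD and 48935 bp in ND. Of 3012 loci within 20% of this length, 80.2% had a peak in FAD and 83.1% in ND, and 4.12% had one in HFD only.

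Rarres2 encodes chemerin, a chemoattractant and adipokine (gene 71660, chr6:48569696-48572845). It had no peak in any library, and the nearest lay 12633 bp from the record in FAD, 12367 bp in HFD and 12601 bp in ND. No peak at all was found at 45.2% of the 5424 loci within 20% of its length.

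Lepr, the leptin receptor gene (gene 16847, chr4:101717137-101815352, plus strand), is the longest member and held 8 of the 28 regions, all in its record. It had 4 peaks in FAD, 6 in HFD and 6 in ND, where loci of like length had medians of 4, 7 and 5. The region called in all 3 libraries with the highest scores lay about 41 kb past the start, with scores of 189 in FAD (101759173 to 101760009), 274 in HFD (101759167 to 101759974) and 362 in ND (101759170 to 101760021). The other regions shared by every library scored 77.8 in FAD, 84.6 in HFD and 86.7 in ND about 17 kb past the start, and 162 in FAD, 175 in HFD and 125 in ND about 91 kb past it.

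Between those shared regions the libraries differed at Lepr. A peak about 62 kb past the start was called in HFD (101779820 to 101780204, score 178) and in ND (score 63.8), and the nearest FAD peak was 19811 bp away from it. In the stretch between 82 and 87 kb, ND had a peak at 101800571 to 101800883 (score 51.2), HFD had peaks at 101802691 to 101803404 (59.7) and 101803662 to 101804450 (90.8), and FAD had a peak at 101803785 to 101804314 (95.4). The ND peak stopped 1808 bp short of the first HFD peak. A further ND peak, 6054 bp past the second listed start (101723960 to 101724321, score 89.6), had no FAD or HFD peak within 10 kb.

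Adipor1 (gene 72674, chr1:134415378-134433351, plus strand) encodes the adiponectin receptor that is widely expressed. It held 1 weak region, about 8 kb past its start, with a score of 61.1 in HFD (134423749 to 134424276) and 59.4 in ND (134423780 to 134424171). FAD had no peak at the locus, and its nearest lay 8562 bp from the record. The HFD and ND scores outranked 15.7% and 11.7% of their lists, so this region was near the calling threshold where it was found.

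Adipor2 (gene 68465, chr6:119353150-119417699, minus strand) encodes the receptor that is prominent in liver. It had 1 peak in FAD, 5 in HFD and 2 in ND, the widest gap between FAD and HFD among the members. Of 1810 loci within 20% of its length, 16.1% had as large or a larger excess of HFD over FAD peaks. The shared region, in the record, had a score of 165 in FAD (119365872 to 119366160), 244 in HFD (119365852 to 119366250) and 65.3 in ND (119365854 to 119366196). Near the 3′ end a narrow peak was called in HFD (119353550 to 119353887, score 145) and ND (119353603 to 119353882, score 146), 11985 bp or more from any FAD peak. The HFD peak measured 338 bp and the ND peak 280 bp, both below the 10th percentile of width in their lists (367 bp in HFD and 323 bp in ND). The other HFD peaks had no partner. The peak 192 bp beyond the 5′ edge of the record (119417891 to 119418317) scored 105 and lay 29157 bp upstream of the listed start. The rest scored 65.3 at 5922 bp past that start and 53.0 farther into the gene.

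**Figure D3:**
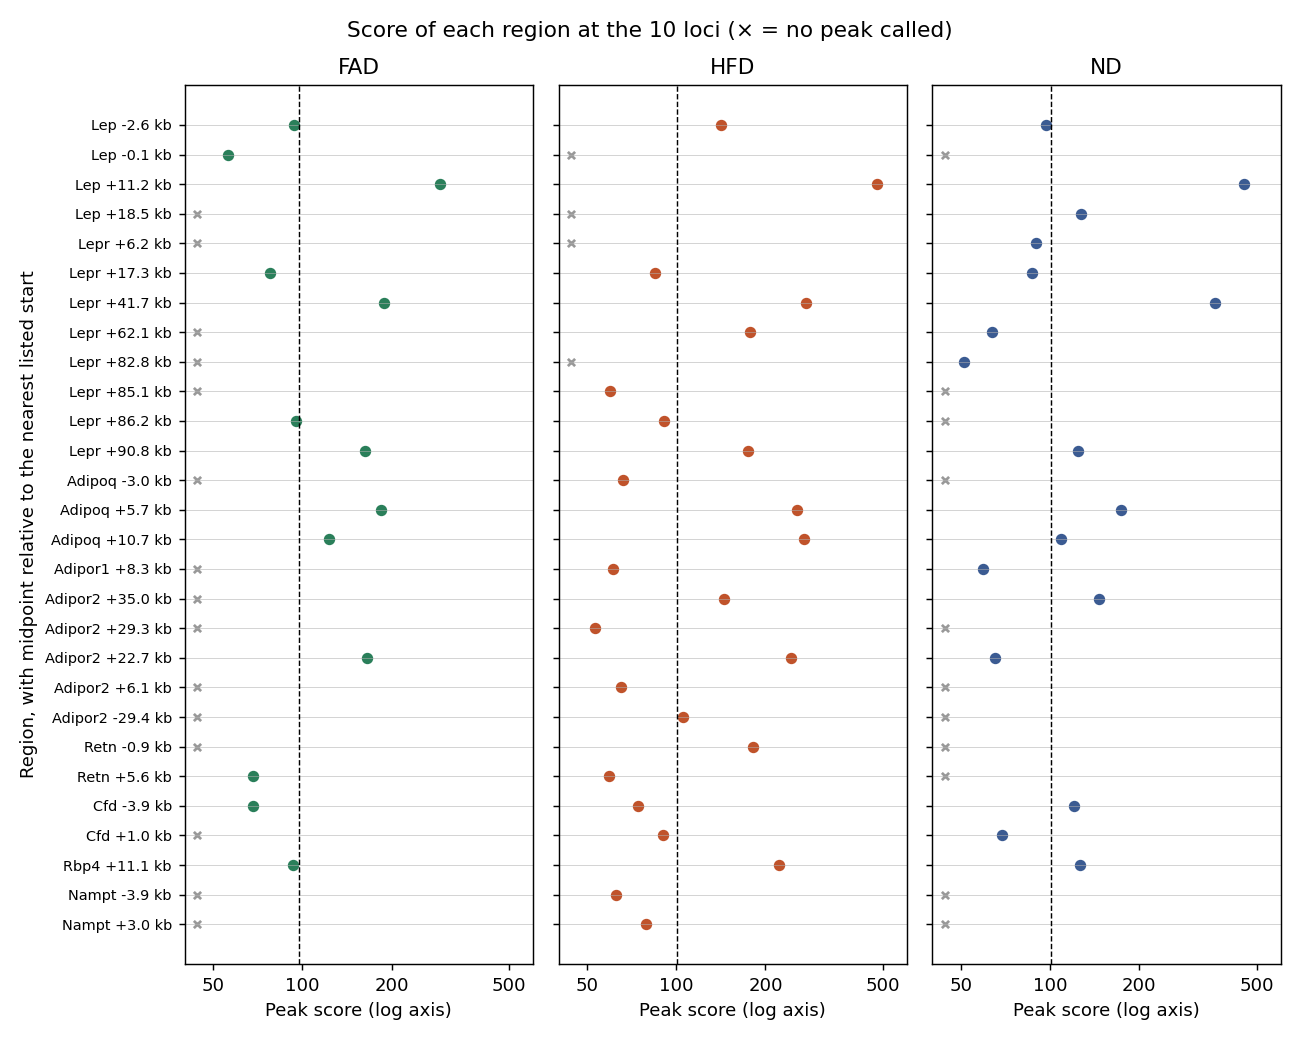
Score of each of the 28 regions in FAD, HFD and ND on a log axis, with a cross where no peak was called and a dashed line at the median score of that list (97.1, 100.4 and 100.9). Regions called in 1 library only sit mostly left of the line, while the region 11.2 kb past the Lep start has the highest score in each panel.

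The first comparison, FAD with HFD, asks what folic acid goes with on the same diet. A peak in HFD and none in FAD was found at 2 members, Adipor1 and Nampt (10.5% of all protein-coding genes), and the reverse at none (1.64%). Of the 24 HFD peaks, 12 had no overlapping FAD peak (50%, Wilson 95% interval 31.4 to 68.6%), where the share over all HFD peaks at protein-coding loci was 43.4%. These were 4 peaks at Adipor2, 2 each at Lepr and Nampt, and 1 each at Adipoq, Adipor1, Retn and Cfd. Of the 13 FAD peaks, 1 had no HFD partner, that over the Lep start (7.69%, 1.37 to 33.3%), against 14.2% over all FAD peaks at such loci. Both backgrounds lay inside the members' intervals, which cover counting error only. With lists of equal length the count of 2 members came to 1 (6.39% of all genes), because the HFD peak of Adipor1 dropped out. In those lists 2 of 13 FAD peaks (15.4%) had no HFD partner, beside 24.97% over all loci. With a flank of 10000 bp the count of members also came to 1 (8.86% of all genes), because an FAD peak then fell within the Adipor1 locus. With 2000 bp the count came to 3 (10.9%), since the FAD peak counted for Cfd lies farther out, in Elane.

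The second comparison, HFD with ND, asks what dietary fat goes with. Retn and Nampt had a peak in HFD and none in ND, 2 of 10 members where 8.23% of genes did, and no member had the reverse (1.97% of genes). Of the 24 HFD peaks, 10 had no ND partner (41.7%, 24.5 to 61.2%), near the 39.3% of all HFD peaks at protein-coding loci. Adipor2 had 3 of them, Lepr, Retn and Nampt 2 each, and Adipoq 1. Of the 17 ND peaks, 3 had no HFD partner (17.6%, 6.19 to 41.0%), against 15.7%, and they were those at Lepr and past the end of Lep. With lists of equal length, 4 of 17 HFD peaks had no ND partner (23.5%), beside 28.4% over all such loci. Adipor1 was then marked in ND and not in HFD, as were 4.59% of all genes. Among the 50% of peaks that scored highest, Retn was the 1 member of 10 marked in HFD and not in ND, as were 11.4% of all genes.

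The third comparison set FAD beside ND, which differ in both dietary fat and folic acid. Retn was marked in FAD and not in ND (4.16% of genes), by its weak peak past the gene end, and Adipor1 in ND and not in FAD (6.76%). Of the 13 FAD peaks, 3 had no ND partner (23.1%, 8.18 to 50.3%), against 26.2% over all loci. They lay at the Lep start, in Lepr and past the end of Retn. Of the 17 ND peaks, 7 had no FAD partner (41.2%, 21.6 to 64.0%), against 32.5%. Lepr held 3 of these, and Lep, Adipor1, Adipor2 and Cfd 1 each. Each gene count here rests on a peak that scored under 70, and both changed under other settings.

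**Figure D4:**
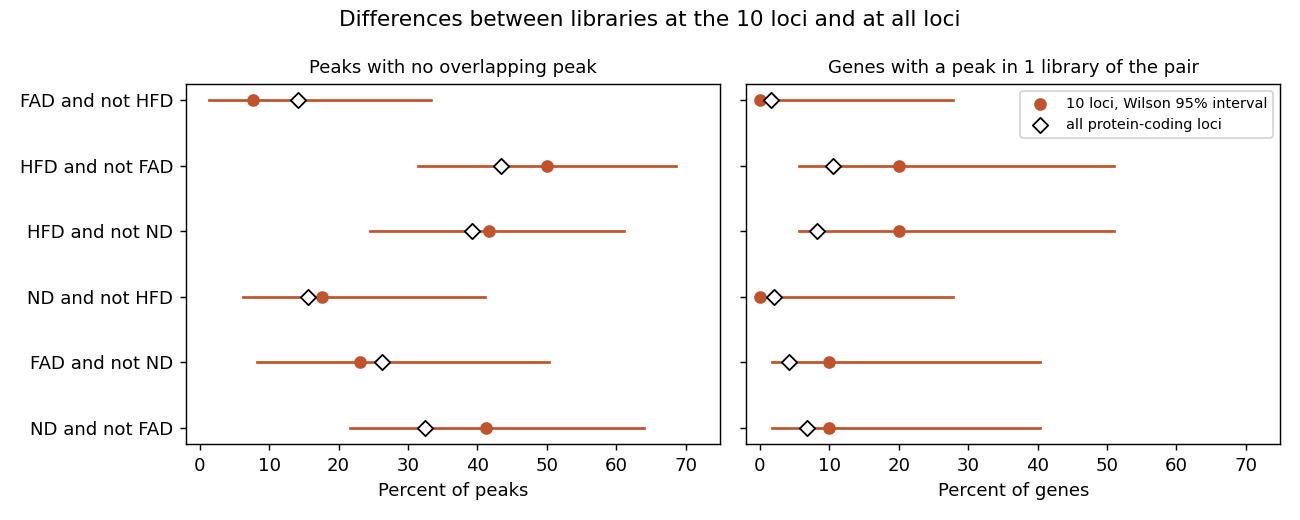
Left: percent of peaks at the 10 loci that overlap no peak of the other library. Right: percent of the 10 genes with a peak in the library named first and none in the other. Bars are Wilson 95% intervals and diamonds the same share over all protein-coding loci, each of which falls inside its bar.

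Regions shared by every library differed in width in the way the lists did. In FAD the 10 shared regions had a median width of 361 bp, in HFD 554.5 bp and in ND 453.5 bp. FAD was wider than HFD at 1 of the 10 (10.4% of 33128 shared regions at protein-coding loci), HFD wider than ND at 7 (77.1%) and FAD wider than ND at 2 (29.2%).

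Peaks were also counted around the listed start sites, from 2000 bp upstream to 500 bp downstream. Windows could be placed at 9 members, all but Rarres2. They held a peak at 1 member in FAD (Lep), 1 in HFD (Retn) and none in ND. The share of 17492 genes was 9.57%, 15.3% and 10.7%. Each share lay inside the members' Wilson 95% interval, 1.99 to 43.5% in FAD and HFD and 0 to 29.9% in ND. The 5′ edge of the Adipor2 record is not a listed start, so it had no window. The HFD peak 192 bp beyond that edge was not counted here. The distance from a start to the nearest peak varied among the starts rich in CpG. That of Nampt, with 36 CpG, lay 73614 bp from an FAD peak, 2831 bp from an HFD peak and 81969 bp from an ND peak. The listed starts of Adipor1, with 21 and 40 CpG, lay at least 9703 bp from an FAD peak, 8085 bp from an HFD peak and 8116 bp from an ND peak. The start of Adipor2, with 41 CpG, lay 22574 bp from an FAD peak, 5922 bp from an HFD peak and 22538 bp from an ND peak. For the second listed start of Rbp4, with 40 CpG, the distances were alike: 8172 bp in FAD, 8083 bp in HFD and 8147 bp in ND.

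Genes that work with the members were listed by role. Over the 5 lists, 92 of 119 genes had a peak in FAD (77.3%), 99 in HFD (83.2%) and 95 in ND (79.8%), where all protein-coding genes gave 69.1%, 77.9% and 71.7%, and no difference from these shares was tested. Of 40 other genes of fat, most of them for secreted factors, 26 had a peak in FAD (65%), 29 in HFD (72.5%) and 28 in ND (70%). These were near or below the shares of all protein-coding genes. The 3 of these 40 genes marked in HFD and not in FAD compare with 10.5% of all genes, the 2 marked in ND and not in FAD with 6.76%, and the 1 marked in HFD and not in ND with 8.23%. Lpl, which encodes lipoprotein lipase, had overlapping peaks in HFD (127) and ND (84.7) and none in FAD. C1qtnf1, of the adiponectin-related CTRP family, also had none in FAD. Its highest-scoring peaks in HFD (67.0) and ND (60.9) did not overlap. C1qtnf3 of the same family had a peak in HFD (score 101) and none in FAD or ND, whose nearest peaks lay 64111 and 64116 bp away. Fstl1 and Vegfa had the highest mean rank in this list, taken over the top peak of each library. Of 23 other receptors and binding partners, 17 were marked in FAD, 18 in HFD and 18 in ND. Cap1, which encodes a protein described as a resistin receptor in human monocytes, was marked in HFD (125) and ND (87.8) and not in FAD. Cdh13, the gene of T-cadherin, which binds adiponectin, held 52 peaks in FAD, 97 in HFD and 70 in ND. With Erbb4 it had the highest mean rank in its list. A rank rests on the top peak per library, so a gene with many peaks has more chances of a high rank.

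Leptin signalling acts through JAK2 and STAT3. Of 18 genes of this list, 17 were marked in FAD (94.4%), 17 in HFD (94.4%) and 15 in ND (83.3%), beside 69.1%, 77.9% and 71.7% of all genes. The 2 marked in FAD and HFD and not in ND compare with 4.16% of all genes for FAD and 8.23% for HFD. Socs3, which encodes the feedback inhibitor of leptin signalling, had overlapping peaks in FAD (68.1) and HFD (98.0). At Sh2b1, an adaptor gene for JAK2, the highest-scoring peaks in FAD (106) and HFD (77.8) did not overlap. ND had no peak closer than 9254 bp to the HFD peak of Socs3, or than 9226 bp to the FAD peak of Sh2b1. All 17 of the 19 adiponectin signalling genes that had a peak had one in every library, with Prkag2 and Stk11 at the highest mean rank. Among all genes 64.3% had a peak in every library and 19.0% had none in any. Of 19 NAD and retinoid genes, 15 were marked in FAD, 18 in HFD and 17 in ND. The retinoid genes Rara, Rxra and Lrat had peaks in HFD (87.3, 79.6 and 57.9) and ND (114, 75.5 and 50.2) and none in FAD. These scores are of the highest-scoring peak per library, and those top HFD and ND peaks did not overlap at any of the 3 genes. The 3 genes compare with 10.5% of all genes marked in HFD but not FAD, and 6.76% in ND but not FAD. Rdh10 had peaks in FAD (80.0) and HFD (96.4) and none in ND. Nmnat3 and Nmnat2, which encode enzymes of the NAD step after NAMPT, had the highest mean rank in this list. No gene of these lists had a peak in FAD and none in HFD, where 1.64% of all genes did, nor in ND and none in HFD, where 1.97% did.

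As context on the other cells of the tissue, adipocyte marker genes were marked at 7 of 10 in FAD, 8 in HFD and 5 in ND, and 3 of the 10 are members. The shares over all genes were 69.1%, 77.9% and 71.7%. Leukocyte markers gave 4, 6 and 4 of 8, and endothelial markers 4 of 4 in each library. Mesothelial and fibroblast markers gave 5 of 6 in each library, and epididymal markers none, 3 and 1 of 6 in FAD, HFD and ND. A peak shows methylation and no cell type by itself, and the part of cell composition in the differences above was not tested.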

How the data were processed

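MeDIP-seq libraries of epididymal fat from FAD, HFD and ND mice, 1 per diet and grouped by the labels, were used as the peak lists the authors deposited. DNA was isolated on columns and libraries were prepared after an Illumina guide, according to the labels. The submitters' processing notes give mm10 as the build. MACS stands in the names of the peaks, per the files, but the labels state neither its version, settings and control nor the aligner, the depth and the handling of duplicates. Each peak has the authors' deposited score, of unstated scale and at least 50. Peaks were called per library, so an absent peak means that none passed the caller's threshold there.

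Gene records came from a RefSeq table of GRCm38.p6, the assembly of mm10, and start sites, strands and start windows from a RefSeq promoter table, which matched 9 of the 10 members. A peak belonged to a locus when it overlapped the record or its 5000 bp flanks by 1 bp, and had a partner when a peak of the other library overlapped it by 1 bp. Its place in a record was set by its midpoint, and distances are between nearest bases. Regions are peaks of the 3 libraries chained by overlap. The design gave no test. Intervals are Wilson 95% intervals. The planned rule named all members, the 3 highest-scoring genes per list and direction and 2 leading genes per list, and some genes it names are left out. Members and lists were chosen with earlier results of these data known, and the CpG classes and the loci of like length after the values were seen. The code recovered all planted peaks in simulated lists with 200 genes and gave bedtools' counts for every pair of lists. Alternatives were other flanks, thresholds, overlaps, joining of peaks and start windows. Overlaps were computed in Python 3.11.15 with pandas 2.3.3 and numpy 2.4.6, intervals with scipy 1.17.1, and figures with matplotlib 3.10.9, beside bedtools 2.31.1.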

Additional observations from a re-analysis of the deposited data

How the results depend on the processing

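When the values were recomputed under other settings, 135 stayed within 1.5 times the reported count, or within the reported interval of a share, and 21 did not. Some of the 21 are peak counts, which cannot fall with a wider flank or rise when a list is cut to 50%. With a flank of 10000 bp, peaks at the loci numbered 21 in FAD and 39 in HFD. At that flank 1 member was marked in HFD but not FAD (8.86% of all genes), and 0 in ND but not FAD (5.71%). With a flank of 2000 bp, 2 members were marked in ND and not in FAD (6.70% of all genes). Among the 50% of peaks that scored highest, peaks at the loci numbered 6 in FAD, 12 in HFD and 9 in ND. Members with a peak in FAD then numbered 4 (52.0% of all genes). Members with a peak at the start numbered 0 in FAD (4.93% of genes with a start window). Among these highest-scoring peaks, members marked in FAD and not in ND numbered 0 (5.04% of all genes), and in HFD and not in ND 1 (11.4%). Those in ND and not in FAD numbered 2 (7.96%), and in ND and not in HFD 1 (2.61%). Of the FAD peaks, 0% lacked an HFD partner, beside 14.3% over all loci. With lists of equal length, 1 member was marked in HFD and not in FAD (6.39% of all genes), and 1 in ND and not in HFD (4.59%). Of the HFD peaks in those lists, 23.5% lacked an ND partner, beside 28.4% over all loci. Start windows of 1000 bp on each side held a peak at 2 members in HFD (Retn and Cfd) and 1 in ND (Cfd). The shares over all genes with such windows were 11.8% and 8.43%. Windows from 250 bp upstream to 50 bp downstream held a peak at 0 members in HFD, beside 3.90% over all genes. Midpoint assignment, joining of peaks, a reciprocal overlap of 50% and a partner within 1000 bp gave no such change, though both equal-length lists and the reciprocal overlap left 15.4% of FAD peaks without an HFD partner, inside the reported interval.

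Counts of 1 or 2 among 10 genes move with any single weak peak. Of the 24 HFD peaks at the members, 17 were kept when the lists were cut to the length of the FAD list, which removed HFD scores under 73.2. The peaks over the Lep start in FAD (56.1) and at Adipor1 (61.1 in HFD, 59.4 in ND) are close to the floor of 50, and a library of other depth could gain or lose them. Depth is unknown here, and no library has a replicate. No paired analysis was possible because each diet has 1 library.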
